A study of Mus musculus with 2 samples.

Results

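Chromatin remodellers are ATP-driven machines that slide, evict or exchange nucleosomes and so set which genes transcription factors can reach. They fall into SWI/SNF (BAF and PBAF), ISWI, CHD and INO80-type complexes, each built around an ATPase of the SNF2 type. In the uterus, the SWI/SNF subunit ARID1A is needed for embryo implantation in mice and is often lost in cancers that arise with endometriosis. N6-methyladenosine (m6A) is a mark set on mRNA by the METTL3-METTL14 enzyme and read by proteins that change how long an mRNA lasts and how well it is translated. It is known to gather near stop codons and in long internal exons.

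The genes described here are 35 subunits and ATPases of these complexes. Their m6A peaks were taken as those whose summit lay inside the gene's span in the RefSeq annotation of mouse build mm10. This rule gave 225 of the 38366 peaks of the series (0.586%), in 33 of the 35 genes. The peaks come from methylated RNA immunoprecipitation sequencing (MeRIP-seq), in which RNA bound by an anti-m6A antibody (IP) is sequenced beside RNA that was not immunoprecipitated (input). The IP group was 1 library of wild-type C57BL/6 whole uterus, a pool in equal amounts of gestation day 4 and gestation day 8. The input group was 1 library of whole uterus of the same strain without antibody, and its label gives neither a day nor a pool. With 1 library per group there was no replicate check and no test between groups, and the days cannot be told apart in the pool. Peak names in the list carry the tag D8 and no other day.

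Fold enrichment is the authors' ratio of IP fragments to local background at the summit. Parentheses after a fold hold its exact 95% Poisson interval, taken from the number of IP fragments. They cover counting error only, and leave out the error of the background and the variation between animals. The background is on the scale of IP fragments and was recovered from the deposited values. Its lowest level, 0.462, recurs at many peaks and is read here as the genome-wide level. Over all peaks the median summit held 29 IP fragments over a background of 3.33. All 14 marker genes of uterine stroma, muscle, epithelium and endothelium carried a peak, beside 55.4% of all protein-coding genes. Both immune markers and 1 of 4 trophoblast markers (Tfap2c, but not Ascl2, Prl3d1 or Tpbpa) did as well. Each Hoxa11 summit and the highest of Cdh5 also lay inside another annotated gene. The highest peak of the immune marker Adgre1 stood at the genome-wide level of background. In bulk tissue fewer cells of a type and less RNA per cell cannot be told apart, and the cell type behind a peak is unknown.

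Peaks were found in 94.3% of the remodeller genes (33 of 35; exact Clopper-Pearson 95% interval 80.8 to 99.3), beside 55.4% of all protein-coding genes. Only Smarcb1 and Smarca1 had none. Their number per gene ran from 1 in Smarcd1, Chd5 and Ino80 to 20 in Baz2b, with a median of 6 per peak-carrying gene, where the median peak-carrying protein-coding gene held 2. At least 5 peaks lay in 18 of the 35 genes and at least 10 in 8. Of all protein-coding genes with a peak, 14.9% held at least 5 and 2.59% at least 10. The remodeller genes are also long, with a median span of 77.8 kb against 25.1 kb over all peak-carrying genes. Per 10 kb of span the median was 0.772 peaks in remodeller genes and 0.868 in all. Across the 35 genes, span and number of peaks had a Spearman's rho of 0.52, given as a description.

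The highest peak of a remodeller gene was mostly a strong one. It reached at least 10-fold in 24 genes, or 72.7% of the 33 with a peak (54.5 to 86.7), where 31.4% of all peak-carrying protein-coding genes did. The median of the highest peak was 12.3-fold, beside 8.04-fold over all peak-carrying genes. Bptf led at 35.7-fold, and Ino80 was lowest at 5.21-fold. Among single peaks the difference was smaller. Of the 225 peaks 43 reached 10-fold (19.1%, 14.2 to 24.9), beside 14.8% of all peaks, and the median peak stood at 6.44-fold beside 6.16-fold. A gene with more peaks has more chances of a high one, and the part of peak number in the highest fold was not tested. The median summit in remodeller genes had 49 IP fragments over a background of 6.79, so remodeller peaks rested on more fragments than the median peak of the series. Background was at the genome-wide level at 2 peaks (0.889%), in Smarcc1 and Chd7, against 7.43% of all peaks.

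**Figure D1:**
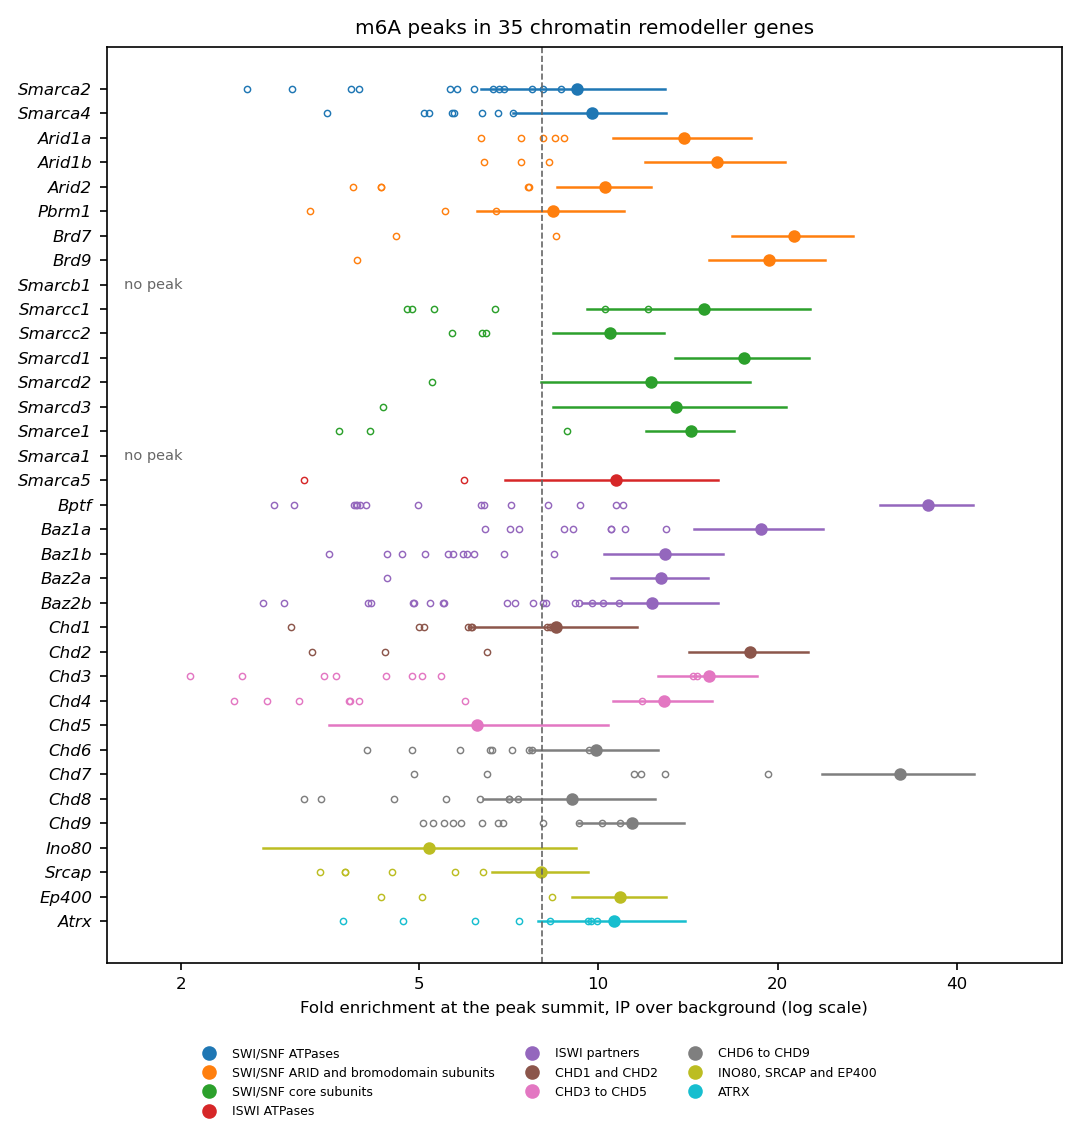
Fold enrichment on a log axis for each peak of 35 remodeller genes, coloured by family. Filled points with bars are the highest peak of a gene and its exact 95% Poisson interval, open points are its other peaks, and the dashed line is the median highest fold of all peak-carrying protein-coding genes (8.04). Bptf and Chd7 stand highest, at 35.7-fold and 32.2-fold, and Smarcb1 and Smarca1 have no peak.

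The ATPases of SWI/SNF, which drive nucleosome sliding by these complexes, carried many peaks of moderate height. Smarca4, which encodes BRG1 (NCBI Gene 20586, chromosome 9, 21616106 to 21704230), carried 9, between 3.51-fold and 9.78-fold. The strongest, at 21647227 to 21647654, had 45 IP fragments over a background of 3.71 (9.78-fold, 7.19 to 13.0). The paralogue Smarca2, which encodes BRM (NCBI Gene 67155, chromosome 19, 26605073 to 26778321), carried 14, between 2.58-fold and 9.22-fold. Its strongest lay at 26715926 to 26716125, with 31 fragments over 2.47 (9.22-fold, 6.36 to 13.0). The highest peaks of the ATPases overlapped in their intervals, and neither gene had a peak of 10-fold. Summits of Smarca2 ran from 1.09% to 99.5% of the span and those of Smarca4 from 26.2% to 98.5%, with 3 in the last 10% of each. The last 3 peaks of Smarca2 also lie inside another annotated gene, 4931403E22Rik, and the list carries no strand to separate them.

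The large ARID subunits, which target the BAF and PBAF forms of the complex, had their strongest peak near a start site in Arid1a and Arid1b. Arid1a (NCBI Gene 93760, chromosome 4, 133679008 to 133756769) held 6 peaks. The highest, at 133752535 to 133753954, lay 499 bases after the nearest annotated start and had 56 fragments over a background of 3.09 (13.9-fold, 10.6 to 18.0). Its other 5 peaks ran from 6.36-fold to 8.76-fold, and a 1982-base peak near the 3′ end held the most fragments, 143. Arid1b (NCBI Gene 239985, chromosome 17, 4994297 to 5347656) had 4 peaks in a span of 353 kb, again with the strongest at the start and the widest at the 3′ end. The first, at 4994924 to 4996445, stood at 15.8-fold (12.0 to 20.6), and the last, 1953 bases wide and 5413 bases from the 3′ end, at 7.42-fold (6.17 to 8.86). The highest peaks of these paralogues overlapped in their intervals. Arid2, the ARID subunit of PBAF, held 6 peaks of 3.88-fold to 10.3-fold. Its highest was also its widest, at 2892 bases (chromosome 15, 96369861 to 96372752), with 121 fragments over 10.9 (10.3-fold, 8.54 to 12.3).

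The bromodomain subunits bind acetylated histone tails, and Brd7 and Brd9 had the highest peaks after Bptf and Chd7. Brd7, a PBAF subunit (NCBI Gene 26992, chromosome 8, 88329894 to 88362252), had 3 peaks that fell in height along the gene. They stood at 21.3-fold (16.8 to 26.7), 8.50-fold (6.11 to 11.5) and 4.57-fold (3.11 to 6.50). The first lay 490 bases from a start, with 73 fragments over 2.47, and did not overlap the others in its interval. Brd9, a subunit of the noncanonical BAF complex (NCBI Gene 105246, chromosome 13, 73937801 to 73960895), had 2 peaks. The one 626 bases from a start had 78 fragments over 3.09 (19.3-fold, 15.3 to 24.1), and the one 205 bases from the 3′ end had 37 over 8.65 (3.94-fold, 2.80 to 5.39). The latter summit also lies inside Gm41002. Pbrm1, the polybromo subunit of PBAF, differed in layout: its 4 peaks of 3.28-fold to 8.42-fold all lay between 41.4% and 54.3% of the span.

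Of the 7 core and accessory SWI/SNF subunits, 6 had a peak. Each of these had one of at least 10-fold, beside 31.4% of all peak-carrying protein-coding genes. The intervals of Smarcc1, Smarcc2, Smarcd2 and Smarcd3 reached below 10-fold. The scaffold gene Smarcc1 (NCBI Gene 20588, chromosome 9, 110132024 to 110240178) held 7 peaks. The highest, 92 bases from the start, had 21 fragments over the genome-wide background of 0.462 (15.1-fold, 9.58 to 22.6). Its next peaks, at 12.1-fold (9.50 to 15.2) and 10.3-fold (7.44 to 13.9), lay at 68.4% and 75.3% of the span and overlapped the first in their intervals. In the paralogue Smarcc2 the highest of 4 peaks lay at 79.1% of the span, with 87 fragments over 7.41 (10.5-fold, 8.40 to 12.9). Smarce1, which encodes a DNA-binding HMG subunit, held 4 peaks. The highest had 137 fragments over 8.65 (14.3-fold, 12.0 to 16.9), the most fragments at the highest peak of any of the 33 genes.

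The Smarcd genes encode alternative BAF60 subunits, which link the complex to transcription factors, and each had few peaks. Smarcd1 (chromosome 15, 99702287 to 99713995) had 1, at 37.6% of the span, with 60 fragments over 2.47 (17.6-fold, 13.5 to 22.5). This summit also lies inside Gm17241, so its transcript of origin is uncertain. Smarcd2 (chromosome 11, 106263171 to 106272998) had 2, both near its start. They lay 96 and 662 bases from it, with 24 fragments over 1.04 (12.3-fold, 8.04 to 18.0) and 14 over 1.85 (5.26-fold, 3.03 to 8.58). Smarcd3, the form known from heart and muscle (chromosome 5, 24592622 to 24624456), had 2 as well. Its higher peak lay 51 bases before an internal start, with 19 fragments over 0.482 (13.5-fold, 8.40 to 20.7). The lower, with 33 over 6.79 (4.36-fold, 3.04 to 6.07), also lies inside Chpf2. Intervals of the highest peaks overlapped in all pairs of the Smarcd genes.

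Smarcb1, which encodes the SNF5 core subunit (NCBI Gene 20587, chromosome 10, 75896769 to 75921614), had no summit in its span. The closest peaks lay beyond its 3′ end: a 4.84-fold peak of 14 fragments, 677 bases away and in no annotated gene, and a 6.80-fold peak 1524 bases away inside Derl3. Lack of methylation, lack of expression and thin coverage cannot be told apart in a gene that has no peak.

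The ISWI ATPases space nucleosomes in regular arrays. Smarca5, which encodes SNF2H (NCBI Gene 93762, chromosome 8, 80699943 to 80739459), had 3 peaks. The middle one, 2625 bases from the start, had 23 fragments over 1.24 (10.7-fold, 6.97 to 15.9). The peak 335 bases from the start had 16 over 1.85 (5.96-fold, 3.56 to 9.46), and the one nearest the 3′ end had 30 over 8.65 (3.21-fold, 2.2 to 4.54). The interval of the highest overlapped that of the peak at the start and lay apart from that of the last. Smarca1, which encodes SNF2L (NCBI Gene 93761, chromosome X, 47809370 to 47892613), had no peak in its span of 83.2 kb and none within 5000 bases of it.

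The large partners of the ISWI ATPases, which read histone marks through PHD fingers and bromodomains, together held 60 peaks. All 5 carried a peak of at least 10-fold, beside 31.4% of all peak-carrying protein-coding genes. The interval of the highest peak in Baz2b, 9.39 to 15.9, reached below 10-fold. Bptf, the largest subunit of the NURF complex (NCBI Gene 207165, chromosome 11, 107033081 to 107132147), had 16. The first, at 107131164 to 107131850 and 714 bases from the start, had 123 fragments over a background of 2.47 (35.7-fold, 29.7 to 42.6). The next highest, 11.0-fold (9.15 to 13.2) and 10.7-fold (9.03 to 12.6), had 119 and 142 fragments over backgrounds of 9.88 and 12.4. From the start to the 3′ end, the 15 peaks after the first stood at 6.37, 10.7, 11.0, 8.25, 3.09, 3.93, 3.95, 5.0, 3.99, 2.86, 6.44, 9.34, 3.90, 7.14 and 4.09-fold. None of these overlapped the first in its interval. A small peak of 9 fragments (5.74-fold, 2.94 to 10.4) lay just outside the span, 30 bases before the start.

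The BAZ genes encode bromodomain partners such as ACF1 (Baz1a), WSTF (Baz1b) and TIP5 (Baz2a). In Baz1a (NCBI Gene 217578, chromosome 12, 54892989 to 55014371) 5 of 10 peaks reached 10-fold, beside 14.8% of all peaks. Along the chromosome the 10 peaks stood at 8.75, 10.5, 10.5, 18.7, 11.1, 7.36, 9.08, 6.45, 7.11 and 13.0-fold. The highest, at 54918449 to 54918753, had 64 fragments over 2.47 (18.7-fold, 14.5 to 23.8). Its lowest peak, 6.45-fold, was above the lowest peak of each of the 7 other genes with at least 10. Baz1b (NCBI Gene 22385) held 12 peaks, led by 1 at 89.6% of the span with 76 fragments over 4.94 (13.0-fold, 10.2 to 16.2). Its 1817-base peak in mid-gene had 174 fragments, the most of all 225 peaks, at 8.43-fold (7.23 to 9.77). Highest peaks of Baz1a and Baz1b overlapped in their intervals.

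Baz2a and Baz2b had highest peaks of like height and very unlike numbers. Baz2a (chromosome 10, 128091370 to 128129303) had 2 neighbouring peaks over the same background of 8.03. They held 39 and 114 fragments (4.43-fold, 3.18 to 6.02, and 12.7-fold, 10.5 to 15.3). Baz2b (chromosome 2, 59899363 to 60209913) had 20 peaks of 2.74-fold to 12.3-fold, and 18 of them lay at or beyond 77.5% of a span of 311 kb. The other 2 stood near starts or the 5′ end: 1 at 27.1% of the span, 77 bases after an internal start (7.78-fold, 5.18 to 11.3), and 1 at 0.962% (4.91-fold, 2.78 to 8.14).

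CHD1 and CHD2 are remodellers with paired chromodomains that act on transcribed genes. Chd1 (NCBI Gene 12648) held 9 peaks of 3.06-fold to 8.51-fold. Chd2 (NCBI Gene 244059, chromosome 7, 73426652 to 73541746) held 4, of which 1 stood far above the rest. Along the chromosome they had 74 fragments (6.52-fold, 5.14 to 8.17), 33 (3.31-fold, 2.31 to 4.61), 75 (18.0-fold, 14.2 to 22.5) and 36 (4.40-fold, 3.12 to 6.04). The 6.52-fold and 18.0-fold peaks had nearly equal fragments, over backgrounds of 10.5 and 3.22. The highest peaks of Chd1 and Chd2 did not overlap in their intervals.

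CHD3, CHD4 and CHD5 are the ATPases of the NuRD complex, which joins remodelling to histone deacetylation. Chd4 (NCBI Gene 107932, chromosome 6, 125095980 to 125130591) had 9 peaks with a steep fall along the gene. The first 2, at 3.24% and 13.9% of the span, stood at 11.9-fold (8.28 to 16.5) and 12.9-fold (10.6 to 15.5), and the other 7 between 2.45-fold and 5.99-fold. Chd4 also had the highest background of all 225 peaks, 25.3. In Chd3 (NCBI Gene 216848, chromosome 11, 69343273 to 69369499) 3 of 11 peaks, all within 5336 bases of one end of the span, stood at 15.3-fold (12.6 to 18.5), 14.7-fold (11.4 to 18.5) and 14.4-fold (9.74 to 20.6). The other 8 were between 2.07-fold and 5.46-fold. The 14.4-fold summit also lies inside Gm32483. Chd5, which is known mainly from brain and testis (chromosome 4, 152338646 to 152390194), had 1 peak of 13 fragments (6.26-fold, 3.54 to 10.4). Its interval lay below those of the highest peaks in Chd3 and Chd4, which overlapped each other.

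The CHD6 to CHD9 group held 39 peaks, and Chd7 stood apart within it. CHD7, which binds enhancers and is mutated in CHARGE syndrome, was encoded by a gene with 7 peaks (NCBI Gene 320790, chromosome 4, 8690402 to 8868449). Along the chromosome they had 37, 46, 7, 19, 52, 11 and 66 IP fragments. The folds were 11.8 (8.39 to 16.1), 32.2 (23.7 to 42.7), 4.91 (2.34 to 9.46), 11.5 (7.14 to 17.6), 13.0 (9.74 to 16.9), 6.52 (3.53 to 11.2) and 19.3 (15.0 to 24.5). So 5 of 7 reached 10-fold, beside 14.8% of all peaks. Backgrounds in Chd7 were low throughout, from 0.462 to 3.09, and the 32.2-fold peak stood at the genome-wide level, so the local input set no higher background. The 19.3-fold peak, at 8865607 to 8866797, rested on more fragments and a background of 2.47.

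Chd6, Chd8 and Chd9, paralogues of Chd7, had more even peaks. Chd6 held 10 of 4.10-fold to 9.91-fold, Chd8, a regulator of Wnt targets, held 9 of 3.22-fold to 9.05-fold, and Chd9 held 13 of 5.08-fold to 11.4-fold. The interval of the highest peak in Chd7 lay above those of the 3 others, which overlapped among themselves. All 3 genes had peaks close to the 3′ end. These were 9.65-fold (7.95 to 11.6) at 98.4% of the span in Chd6, 7.10-fold (5.69 to 8.76) at 99.2% in Chd8 and 11.4-fold (9.26 to 13.9) at 98.6% in Chd9. Each of the 3 lacked a summit in the first 20% of its span.

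INO80, SRCAP and EP400 are ATPases that move or exchange nucleosomes holding the variant H2A.Z, and the median of their highest peaks, 8.02-fold, was the lowest of the families. Ino80 (NCBI Gene 68142, chromosome 2, 119373042 to 119478685) had 1 peak of 10 fragments over 1.11 (5.21-fold, 2.74 to 9.18), 57 bases before an annotated start. Srcap (NCBI Gene 100043597, chromosome 7, 127511983 to 127561219) had 7 peaks. The highest was 2383 bases wide, 1913 bases from the 3′ end, with 116 fragments over 13.6 (8.02-fold, 6.64 to 9.61). A further peak of 11.9-fold (8.31 to 16.6) crossed the start of Srcap, but its summit lay 491 bases before it, inside 1700008J07Rik, and it was not counted. Ep400 had 4 peaks, led by a 1532-base one at 14.2% of the span with 120 fragments over 10.1 (10.9-fold, 9.03 to 13.0).

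Atrx, which deposits histone H3.3 at repeats and telomeres (NCBI Gene 22589, chromosome X, 105797615 to 105929372), had 9 peaks of 3.73-fold to 10.6-fold. A cluster of 5 lay between 55.2% and 59.3% of the span, at 10.6, 9.73, 6.23, 9.62 and 9.96-fold. The widest of all 225 peaks, at 3005 bases, lay at 105874644 to 105877648 with 151 fragments over 17.3 (8.31-fold, 7.05 to 9.74). Over 1000 bases wide were 23 peaks in 14 genes, or 10.2% (6.59 to 14.9), beside 10% of all peaks. They lay in 7 of the 10 families. The largest counts were in CHD6 to CHD9 (7 of 39 peaks), the ARID and bromodomain genes (6 of 25) and the ISWI partners (4 of 60). The others were CHD1 and CHD2 (2 of 13), INO80, SRCAP and EP400 (2 of 12), CHD3 to CHD5 (1 of 21) and Atrx (1 of 9). None lay in the ATPases (23 peaks) or core subunits (20) of SWI/SNF or in the ISWI ATPases (3). Differences between families were not tested.

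Among the 20 pairs of near paralogues set side by side, the intervals of the highest peaks overlapped in 13 and lay apart in 6. The remaining pair held Smarca1, which has no peak. Those that lay apart were Chd1 and Chd2, Chd5 against Chd3 and against Chd4, and Chd7 against Chd6, Chd8 and Chd9. All 6 were among the 10 CHD pairs, and the 9 other pairs with a value overlapped. Chd7 was in 3 of the 6 and Chd5 in 2, so they are not independent. An overlap of intervals does not show that the folds are equal, and the highest of several peaks tends to be high.

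The position of a summit along the transcript could be read for the 28 genes whose strand the RefSeq start table gives, of which 26 carried 174 peaks. Entries were lacking for Arid2, Smarce1, Baz1a, Chd1, Chd2, Chd3 and Chd7. The last 10% of the span held 42 summits in 16 genes, or 24.1% (18.0 to 31.2), beside 29.6% of all peaks in protein-coding genes with a strand. The first 10% held 16, or 9.20% (5.35 to 14.5), beside 12.8%. In these 26 genes the last 10% thus held more summits than any other step of 10%, and the median fold was highest in the first. Median fold was 11.3 in the first 10% and 6.35 in the last, where the same medians over all genes were 7.16 and 5.47. No peak in the last 10% exceeded the 12.3-fold of Baz2b. Strong peaks also lay at neither end: that of Smarcd1 at 37.6% of the span and, in genes without a strand, those of Chd7, Baz1a and Chd2 at 82864, 25611 and 25196 bases from the nearer end. Exon positions were not used here, so a place in the span is not a place in the mature mRNA.

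**Figure D2:**
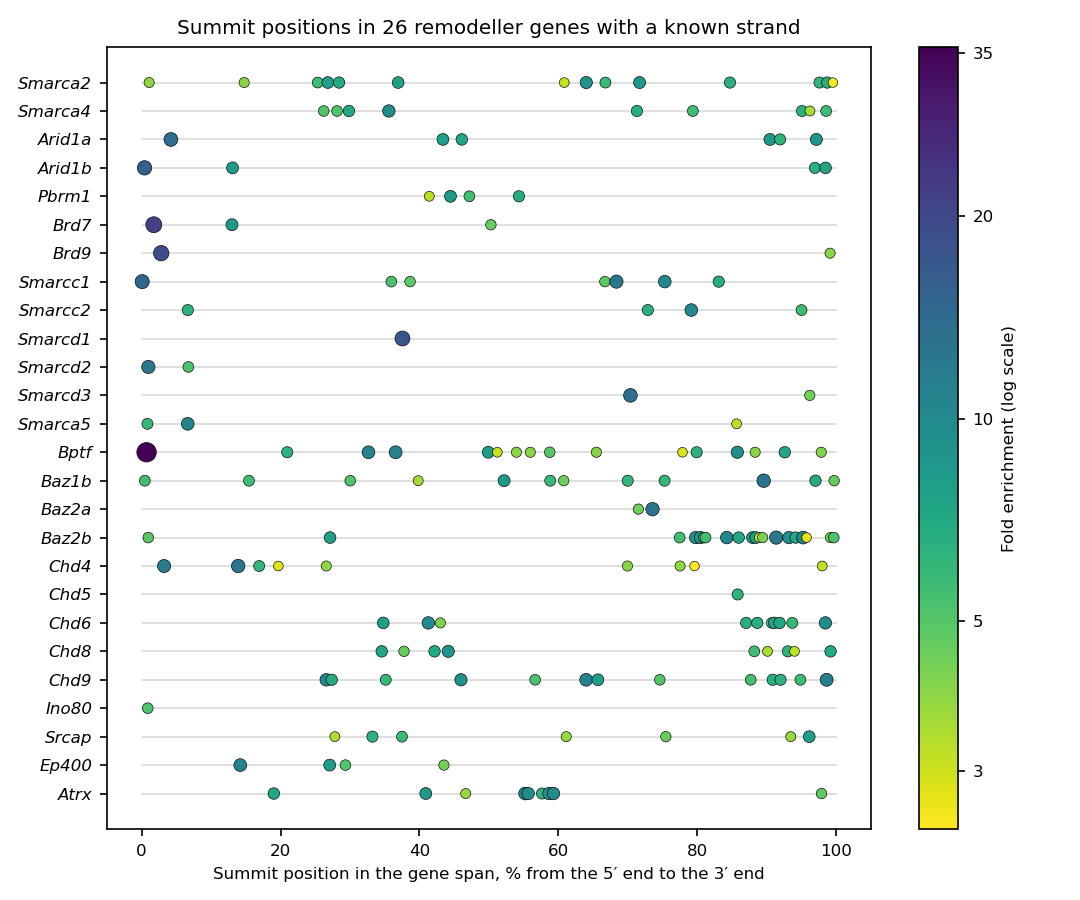
Summits of the 174 peaks in 26 remodeller genes with a known strand, placed by percent of the gene span from the 5′ to the 3′ end, with darker and larger points for higher fold. The 3 largest points, in Bptf, Brd7 and Brd9, sit at the 5′ end, Smarcd1 has a strong peak at 37.6%, and Baz2b, Chd6 and Chd8 have dense groups toward the 3′ end.

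**Figure D3:**
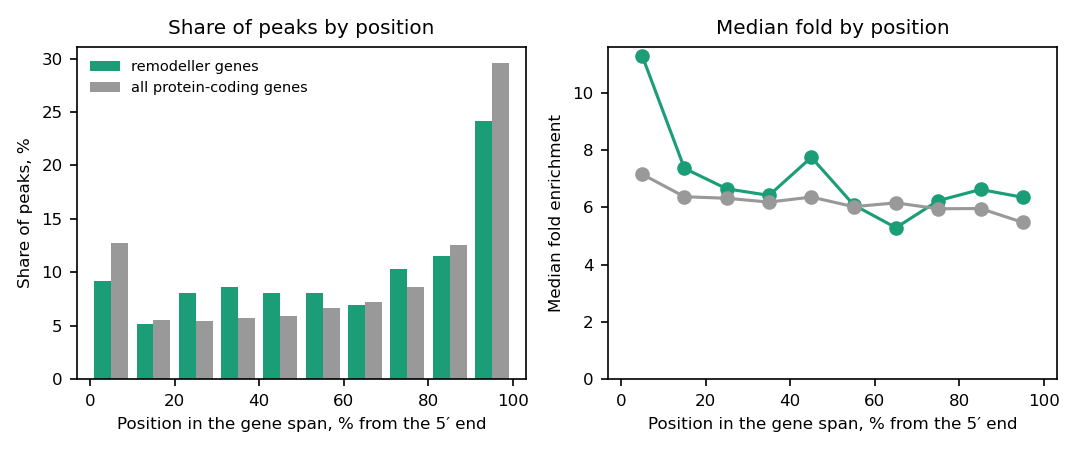
Share of peaks (left, percent) and median fold enrichment (right) by steps of 10% of the gene span from the 5′ end, for 174 remodeller peaks (green) and all peaks in protein-coding genes with a strand (grey). In both sets the last 10% holds more peaks than any other step (24.1% and 29.6%). The remodeller median is highest in the first 10% (11.3-fold against 7.16-fold).

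Within 1000 bases of an annotated start lay 15 of the 174 summits, or 8.62% (4.91 to 13.8), beside 13.1% over all genes. These few were strong: 9 of 15 reached 10-fold (60%, 32.3 to 83.7), where 26.5% of such peaks did over all genes. Of the 159 peaks elsewhere 18 did (11.3%, 6.85 to 17.3), beside 13.0% over all genes, a share inside that interval. In 9 of the 26 genes the highest peak was one of the 15 (34.6%, 17.2 to 55.7), beside 20.3% over all genes, again inside the interval. Of the 7 genes without a strand, 0 had the highest peak within 1000 bases of either end of the span, and internal starts were not known for them. The 9 genes were Arid1a, Arid1b, Brd7, Brd9, Smarcc1, Smarcd2, Smarcd3, Bptf and Ino80. SWI/SNF subunits made up 7 of them, out of 12 with a strand and a peak, and the other families 2 out of 14. This split was noticed in the data and was not tested.

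Background moved with these positions. Peaks near a start had a median background of 1.87 and a median of 26 fragments, and the peaks elsewhere 7.41 and 49. Over all genes the medians were 1.85 and 22 near a start, and 4.45 and 34 elsewhere. Over the 225 peaks, background and fold had a Spearman's rho of -0.47, and over all peaks -0.39. They share the background as a term, so these are descriptions. The part of the low background in the high folds was not tested. Among the start peaks Bptf had the most fragments, 123, followed by Brd9 with 78, Brd7 with 73, Chd9 with 60, Arid1a with 56 and Arid1b with 54. The others had 10 to 33. Antibodies against m6A also bind m6Am, a mark at the first base after the cap, and the marks cannot be told apart in these data.

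**Figure D4:**
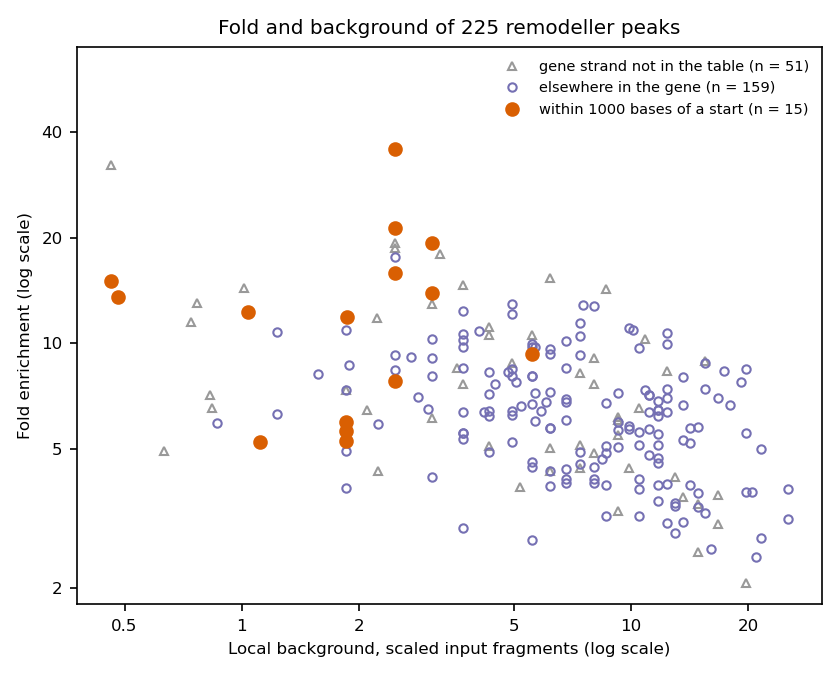
Fold enrichment against local background (scaled input fragments) for the 225 remodeller peaks, both axes log. Orange points are the 15 summits within 1000 bases of an annotated start, open circles the other 159 in genes with a strand, and triangles the 51 in genes whose strand the start table lacks. All 15 start peaks have a background of at most 5.56, and the points of Bptf (35.7-fold) and Chd7 (32.2-fold) lie at backgrounds of 2.47 and 0.462.

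Sequence from RefSeq (GRCm38.p6) was at hand for 250 bases before to 50 bases after each annotated start, 33 windows for 28 of the genes. Peaks with a summit inside the span overlapped the window in 7 genes, namely Baz2b, Ino80, Arid1a, Smarcd3, Chd9, Smarcc1 and Arid1b. In Srcap, Bptf and Smarcd1 a peak whose summit lay outside the span also overlapped it, and these 3 were not searched. The m6A enzyme prefers an adenosine followed by C within a short context. GGAC, GAAC and AGAC were therefore searched on the transcript strand within the overlaps, and 9 matches in 6 genes were found, none in Arid1a. The base after the motif was not part of the search. The stretches below are shown because they are the matches nearest to the summit in the 5 of these 7 genes whose summit lay within 100 bases of the start of the window's transcript. Capitals mark the motif.
Ino80: cggcacggtcggcGGACacgggctagcgac
Smarcd3: accccgggccgccGGACtatttctgtctta
Baz2b: aagtgaagctgctGAACaaaccttgagaag
Smarcc1: cgcgcgcgggtgcGAACgggaaacgccgcg
Chd9: gtagagcaataatGAACactg
They lie, in mm10, at chr2:119477754-119477783 on the minus strand (Ino80), chr5:24602094-24602123 on the minus strand (Smarcd3), chr2:60125702-60125731 on the minus strand (Baz2b), chr9:110132044-110132073 on the plus strand (Smarcc1) and chr8:90932278-90932298 on the plus strand (Chd9). The motifs began 26, 57, 55, 59 and 20 bases before the summit along the transcript. In Ino80 and Smarcd3 they lie before the annotated start used, at -83 and -108, and inside the longer gene span. These motifs are common: of all 32851 windows, 65.6% hold GGAC, 60.3% GAAC and 66.4% AGAC on the transcript strand, and 87.7%, 84.0% and 88.0% on either strand. Of the 33 remodeller windows 15, 14 and 20 held them on the transcript strand and 31, 21 and 28 on either. All these values are for whole windows. The overlaps searched were shorter, from 19 bases in Arid1a to 249 in Ino80, so the shares are not a rate for that search. A match is a description of the letters and not a mapped site.

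The other genes of the same complexes, 72 in 6 lists, had peaks in 63 (87.5%, 77.6 to 94.1), beside 55.4% of all protein-coding genes. Their median highest peak was 7.70-fold, beside 8.04-fold over all peak-carrying protein-coding genes. At least 10-fold was reached in 23 of the 72, beside 17.4% of all protein-coding genes and 24 of the 35 genes above. Of 15 further SWI/SNF subunits 10 had a peak (66.7%, 38.4 to 88.2), an interval that holds the 55.4% of all protein-coding genes. The highest were Bicra at 13.0-fold (10.2 to 16.4) and Dpf3 at 12.7-fold (8.76 to 17.9), and Bcl7c followed at 11.3-fold (7.14 to 17.2). No peak was found in Actl6a, Actl6b, Dpf1, Dpf2 and Bcl11b. ACTL6B and DPF1 belong to the neuronal BAF complex, while ACTL6A and DPF2 serve in many tissues. In NuRD 11 of 12 subunits had a peak, with a median of 5.24-fold. They were led by the histone chaperone gene Rbbp7 at 13.3-fold (10.3 to 16.9), Mbd3 at 12.4-fold (9.10 to 16.5) and Mbd2 at 11.6-fold (7.86 to 16.6), and Hdac1 had none.

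All 4 ISWI accessory genes carried a peak (100%, 39.8 to 100), an interval that holds the 55.4% of all protein-coding genes. These were Chrac1 at 11.6-fold (8.37 to 15.7), Rsf1 at 11.1-fold (9.27 to 13.1), Pole3 at 10.2-fold (8.75 to 11.8) and Cecr2 at 4.95-fold from 7 fragments. Of 13 INO80 subunits 12 had a peak, all but Mcrs1. Ruvbl1, an AAA+ ATPase shared with other complexes, was highest at 15.1-fold (9.58 to 22.6), at the genome-wide background. Ino80b at 11.3-fold (8.39 to 14.9) and Ino80d at 10.9-fold (8.99 to 13.1) came next. With Yy1 at 10.1-fold (7.83 to 12.9), 4 of the 13 exceeded 10-fold, beside 17.4% of all protein-coding genes. Ino80 itself did not, but its interval, 2.74 to 9.18, overlapped those of Ino80b, Ino80d and Yy1. In SRCAP and TIP60, 15 of 16 had a peak, all but Actr6, led by Yeats4 at 16.7-fold (11.1 to 24.2), Vps72 at 13.7-fold (9.69 to 18.8) and Epc2 at 13.0-fold (10.7 to 15.6). Of 12 other SNF2-type ATPases 11 had one, all but Hltf. Ercc6, a transcription-coupled repair factor, stood at 12.4-fold (9.83 to 15.3), Shprh at 12.3-fold (9.39 to 15.9) and Zranb3 at 11.0-fold (8.98 to 13.3). The Rsf1 and Zranb3 summits also lie in another gene.

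**Figure D5:**
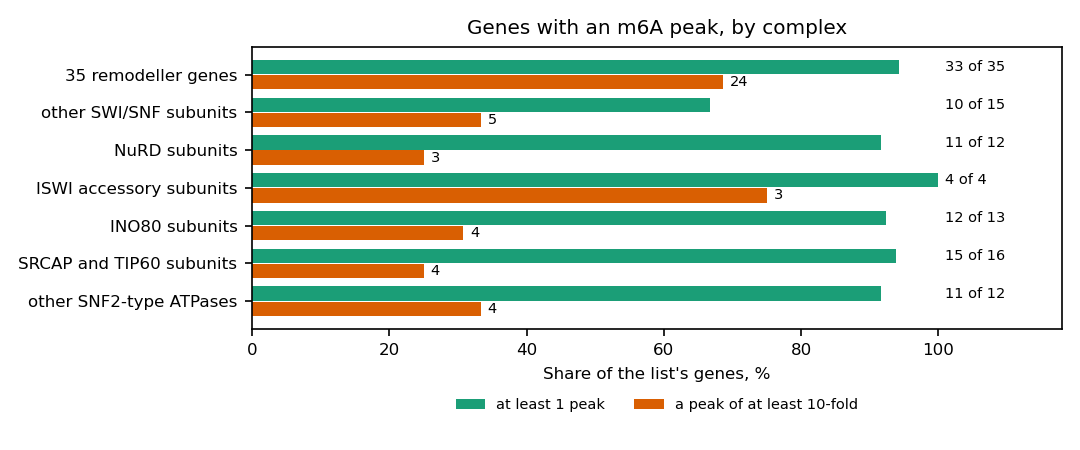
Share of genes (percent) with at least 1 peak (green) and with a peak of at least 10-fold (orange) for the 35 remodeller genes and 6 lists of further subunits, with the counts printed beside the bars. Peaks are present in 33 of 35 and in 10 of 15 to 4 of 4 of the other lists, and 24 of the 35 reach 10-fold. Over all protein-coding genes, 55.4% have a peak and 17.4% have one of at least 10-fold.

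At the edge of the rule, 31 peaks had their summit within 5000 bases outside a span, beside 19 of the 35 genes, and 25 of these summits lay inside another annotated gene. The highest were a 16.6-fold peak (11.8 to 22.8) 375 bases before the start of Smarcd1, inside Gm34939, and a 12.1-fold peak (8.53 to 16.7) 3051 bases before the start of Ep400, inside Pus1 and Gm15559. Chd9 had a 10.5-fold peak (6.27 to 16.7) of 16 fragments 461 bases before its span, in no annotated gene. Inside the spans, 9 of the 225 summits lay in a further gene as well.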

How the data were processed

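MeRIP-seq of whole uterus gave 1 IP and 1 input library, from TRIzol-extracted RNA with a library kit that keeps strand, per the labels' protocols. The submitters' processing notes name HISAT2 2.2.1, MACS3 3.0.0a7 and mm10. Settings, filters and library totals were not given in the sources used here, so no depth per library is stated. The deposited peak list holds a fold enrichment (a ratio), the −log10 p-value and −log10 q-value of each peak, and a display score that was left unused. It has no strand, and its lowest deposited −log10 q is 1.32. IP fragments k and background b were recovered from the deposited fold, read as (k + 1)/(b + 1), and the deposited Poisson p-value. They gave back that −log10 p within 0.001 at 100% of peaks, and the step was tested on simulated data.

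Gene spans were those of RefSeq on GRCm38.p6, which is mm10 (49980 genes, with 17 off the chromosomes left out, and 21900 protein-coding). Strand and starts came from the RefSeq start table, and distance was taken to the nearest of the listed starts and the 5′ end of the span. The members and lists were chosen with earlier results of these data known. All 35 members are named, and those with 1 to 3 peaks and the 6 with the highest fold are given peak by peak. Of the other lists, the 3 highest genes per complex and those without a peak are named, with Yy1 and Cecr2 added after their values were seen. Alternatives were stricter q and fold limits, other overlap rules, single-gene summits, merged intervals and other scores. The distances from a start, 1000 bases and its alternatives, were set after the data were seen. Software was Python 3.11.15 with numpy 2.4.6, pandas 2.3.3 and scipy 1.17.1, and figures were drawn with matplotlib 3.10.9.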

Additional observations from a re-analysis of the deposited data

How the results depend on the processing

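No paired analysis was possible because each group held 1 library. Of 143 values under another setting, 139 stayed within the limits set for them and 4 moved. The limits are not stated here. Some of the 139 could not move. The weakest of the highest peaks was 5.21-fold, so a fold limit of 4 left the highest peak of all 33 genes in place. Merging could change nothing either, as 0 peaks had the same interval as another. Values within the limits could still shift. With nothing added to the terms of the fold, 30 genes reached 10-fold in place of 24. The share of all genes past 10-fold at that setting is not given here. Of the 6 genes with the highest fold, 4 stayed among the first 6 there, and Smarcc1 and Smarcd3 replaced Brd9 and Chd2. Counting any peak that overlaps a span by 1 base put 2 genes of the INO80, SRCAP and EP400 group at 10-fold in place of 1. The median highest fold of 12.3 became 6.52 when the median over a gene's peaks was taken (6.16 over all genes), and 15.8 with nothing added to the terms of the fold (12.0 over all genes). Ranked by −log10 q, only 1 of the 6 genes with the highest fold, Bptf, was again among the first 6. Peaks were found in 33 genes at a −log10 q of at least 5 and at a fold of at least 4, with 218 and 188 peaks. The shares of all protein-coding genes with a peak at these limits are not given here. The genes with the highest peak near a start numbered 6 of 26 within 500 bases (15.5% over all genes) and 9 within 2000 bases (26.5%). They numbered 6 with −log10 q as the score (13.3%) and 6 measured from the 5′ end of the span alone. For the last of these settings the share over all genes is not given here. At 2000 bases the 34.6% of remodeller genes was thus closer to the share over all genes than at 1000 bases, where that was 20.3%. These start distances were chosen after seeing the data. With 1 library per group, variation between animals was not measured.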
